A study of Mus musculus with 3 samples.

Results

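The Hox genes are 38 protein-coding genes in 4 clusters, Hoxa on chromosome 6 (10 genes), Hoxb on chromosome 11 (10), Hoxc on chromosome 15 (9) and Hoxd on chromosome 2 (9), of 21851 protein-coding genes in all. They were taken by symbol. Their chromatin was examined in liver of mouse embryos at 13.5 days by DNase-seq, a method that digests open DNA in nuclei with the enzyme DNase I and sequences the ends so made. The 3 libraries, biological replicates 1, 2 and 3, formed a single group with no treatment and no other tissue. Per the labels, the mice were of strain C57BL/6N,129, wild type but for the yeast artificial chromosome A20, present once, and all libraries share this genotype, stage and tissue. The labels name 1 donor and a separate biosample for each library, so the spread between libraries may be partly technical. With a single group, each library's value or the mean and SD of the 3 is given, and groups could not be tested against each other.

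Hox genes encode homeodomain transcription factors that give cells their position along the body axis. Members at the same place in the different clusters form paralog groups, numbered from the end of the cluster that is used earliest and most anteriorly. Polycomb complexes keep the clusters silent where they are not used, and the Trithorax and MLL proteins keep them active. CTCF, a zinc finger protein that helps to fold chromatin, is known to bind between Hox genes. In the blood-forming system Hoxa5, Hoxa7, Hoxa9, Hoxa10 and Hoxb4 are known from stem and progenitor cells, and the fetal liver is the main site of blood formation at this stage.

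Replicates 1, 2 and 3 held 34369, 122281 and 60862 peaks, and this gap stands beside every count below. Red cell marker genes had a promoter peak in 9, 10 and 10 of 10 cases, Rhag being without one in replicate 1, and Epor, the erythropoietin receptor gene, had the highest lowest percentile of that list, at 92.6, 95.2 and 95.4. Of all protein-coding genes, 54%, 67.3% and 56.4% had one. The same counts were 7, 9 and 5 of 10 for markers of blood stem and progenitor cells, 3, 9 and 7 of 10 for hepatoblast markers, 4, 9 and 5 of 10 for mesenchymal markers, 3, 7 and 5 of 10 for endothelial markers and 0, 4 and 2 of 10 for myeloid markers. Neural markers had a promoter peak in 3, 7 and 3 of 10 cases. The endothelial, myeloid and neural counts, and most of the others in replicates 1 and 3, lie near or below the share of all genes. They do not show that those cells were present. Among hepatoblast markers, Foxa3 was at percentiles 83.2, 86.9 and 83.2 and Hhex at 62.5, 57.5 and 56.7. Alb, which encodes albumin, was the 1 such marker of 10 without a promoter peak in any library. Of 10 genes of kidney, gonad and limb mesoderm, tissues that use posterior Hox genes, 0, 5 and 1 had a peak. Fewer cells of a type and less accessible DNA per cell cannot be told apart in such bulk tissue. The part of each cell type in the Hox values was not tested.

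The sequences that carry the results come first. Hoxa4, Hoxa5 and Hoxa10 were the Hox genes with an open promoter in every library, and the region with the best rank over the libraries in any cluster lay in Hoxd. The open DNA of Hoxa4 and of Hoxd, and that of Hoxa5 up to its start site, is given 5′ to 3′ from mm10, with the bases under footprints of at least 2 libraries in capitals. A footprint is a short stretch within open DNA that is cut less than its surroundings. The letters for Hoxa4 are chr6:52191861-52192119 on the minus strand, which ends 108 bp upstream of the Hoxa4 transcription start site (TSS). Those for Hoxa5 are chr6:52204588-52204780 on the minus strand, 193 of the region's 300 bp, and those for Hoxd are chr2:74715861-74716080 on the plus strand.
Hoxa4: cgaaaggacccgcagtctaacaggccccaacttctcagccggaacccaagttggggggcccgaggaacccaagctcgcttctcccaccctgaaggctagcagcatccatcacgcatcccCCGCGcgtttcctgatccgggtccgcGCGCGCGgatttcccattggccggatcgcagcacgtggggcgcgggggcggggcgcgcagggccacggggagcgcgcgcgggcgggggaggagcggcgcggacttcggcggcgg
Hoxa5: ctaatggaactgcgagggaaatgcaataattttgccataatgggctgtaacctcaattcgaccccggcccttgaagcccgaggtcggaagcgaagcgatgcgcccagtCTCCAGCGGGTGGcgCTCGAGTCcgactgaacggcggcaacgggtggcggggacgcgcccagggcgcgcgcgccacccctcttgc
Hoxd: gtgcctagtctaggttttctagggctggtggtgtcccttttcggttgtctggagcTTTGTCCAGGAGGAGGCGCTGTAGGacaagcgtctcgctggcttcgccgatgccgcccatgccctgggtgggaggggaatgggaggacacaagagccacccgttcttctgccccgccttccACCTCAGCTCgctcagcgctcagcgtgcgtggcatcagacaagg
The Hoxa4 stretch was 72.2% G and C, with 35 CpG sites in 259 bp, and 12 of its bases lay under footprints of at least 2 libraries. The Hoxa5 stretch held 22 CpG sites and 21 such bases, in 2 blocks set close together. In the Hoxd region 35 bases lay under footprints of at least 2 libraries, in 2 blocks.

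Few Hox promoters were open. The promoter window reached 1000 bp to each side of every coding TSS of a gene, and a promoter was counted as open where a peak touched its window. In replicates 1, 2 and 3, 3, 15 and 6 of the 38 genes had a promoter peak, which is 7.89%, 39.5% and 15.8%, a mean of 21.1% ± 16.4 (SD, n = 3). The same shares of all protein-coding genes were 54%, 67.3% and 56.4%. By library, the Hox share lay below that of all genes in 3 of 3 libraries. In all 3 libraries 3 Hox genes had a peak, against 51.4% of all genes; 3 had it in 2 libraries (6.93% of all genes) and 9 in 1 library (9.58%). The remaining 23, or 60.5%, had none, against 32.1% of all genes. The median Hox gene thus had no promoter peak in any of the libraries. A missing peak does not show that a promoter was closed.

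**Figure D1:**
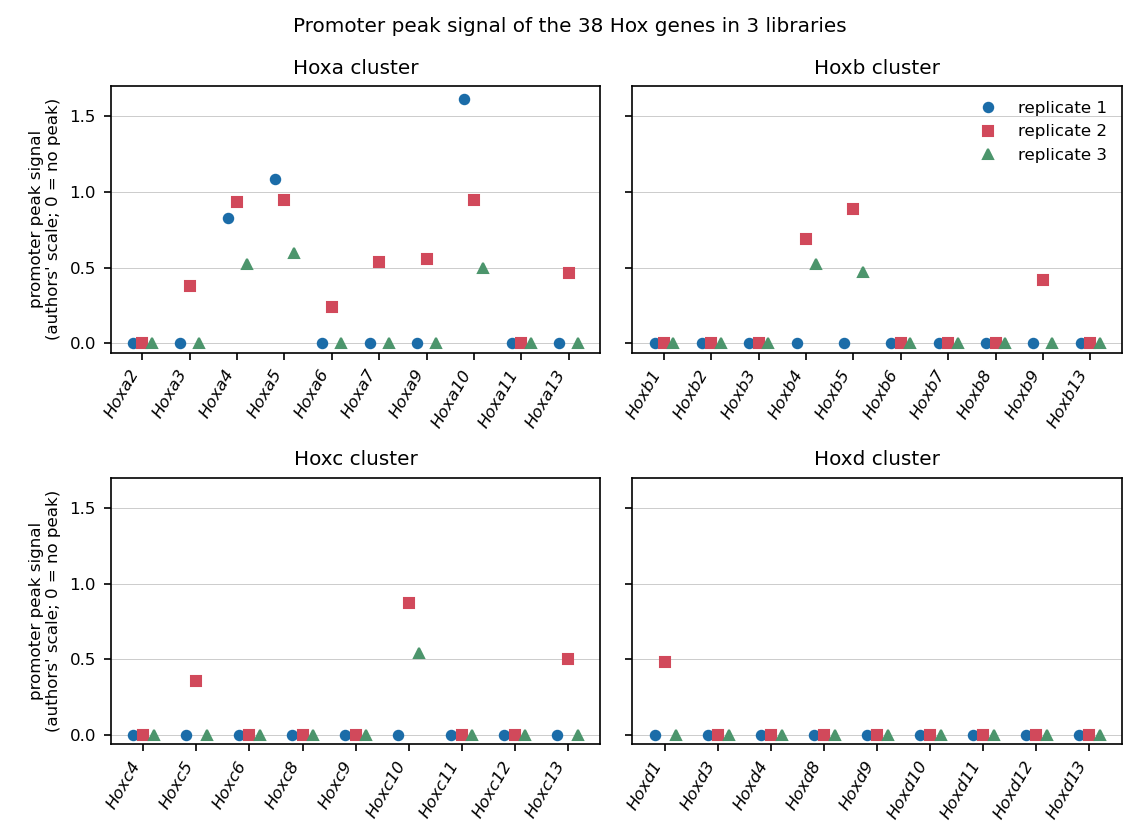
Promoter peak signal (y axis, on the authors' scale per library, 0 where no peak was listed) of each of the 38 Hox genes (x axis, by paralog number) in replicates 1, 2 and 3, by cluster. Signals in all 3 libraries are seen at Hoxa4, Hoxa5 and Hoxa10, most of Hoxd lies at 0, and 9 genes have a signal in replicate 2 alone.

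The clusters differed in the number of open promoters. Hoxa had 3, 8 and 3 open promoters of 10 in replicates 1, 2 and 3, Hoxb 0, 3 and 2 of 10, Hoxc 0, 3 and 1 of 9, and Hoxd 0, 1 and 0 of 9. By position, paralog groups 1 to 3, the anterior genes, had 0, 2 and 0 of 7, the middle groups 4 to 8 had 2, 7 and 4 of 15, and the posterior groups 9 to 13 had 1, 6 and 2 of 16. The middle groups thus had the largest share in each library, although the difference rests on few genes and was not tested. The 2 open anterior genes were Hoxa3 and Hoxd1. The Hoxa3 window lies between Hoxa6 and Hoxa7, among the middle groups.

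Hoxa4, Hoxa5 and Hoxa10 formed the set open in every library. Promoter signal is that of the strongest peak in the window, on a scale that the authors set per library, and its percentile is the share of protein-coding genes with a lower value, genes without a peak counting as 0. Hoxa5, a middle group gene, reached 1.09 in replicate 1, 0.948 in replicate 2 and 0.595 in replicate 3, at percentiles 54.5, 49.6 and 50.5. Hoxa4, its neighbour, had 0.829, 0.934 and 0.526, at percentiles 51.7, 49.4 and 49.3. Hoxa10, a posterior gene known for its part in blood progenitors, had 1.61, 0.945 and 0.498, at percentiles 59.9, 49.6 and 48.8. Mean percentiles were 51.5 ± 2.64, 50.1 ± 1.33 and 52.7 ± 6.18 for Hoxa5, Hoxa4 and Hoxa10 (SD, n = 3), so the 3 genes did not differ beyond the spread between libraries. These are weak signals among genes that have a peak at all, since genes without one make up most of those below them. No Hox gene had a peak in all 3 libraries under the stricter peak lists, nor with equal numbers of the strongest peaks per library.

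Genes with a peak in 2 libraries lay in Hoxb and Hoxc and lacked a peak in the library with the fewest peaks. Hoxb4, known from blood stem cells, lacked a peak in replicate 1, with 0.691 in replicate 2 and 0.526 in replicate 3. Its neighbour in the Hoxb cluster, Hoxb5, had none in replicate 1 and 0.889 and 0.471 in the others. Hoxc10, a posterior gene, likewise had none in replicate 1, then 0.872 and 0.540. Each of the 9 further genes was open in replicate 2 alone, the library with the most peaks. In the Hoxa cluster these were Hoxa3 (signal 0.382), Hoxa6 (0.243), Hoxa7 (0.535), Hoxa9 (0.559) and Hoxa13 (0.465). Hoxa3 had 1 coding TSS in the transcript set used, placed between Hoxa6 and Hoxa7. The window of Hoxa3 shares its peak with that of the neighbouring gene Gm28308. Elsewhere they were Hoxb9 (0.420), Hoxc5 (0.358), Hoxc13 (0.500) and Hoxd1 (0.479). Hoxa9, a central regulator of blood progenitors, thus had a promoter peak in 1 library of 3. That peak was absent from the stricter list, and the smallest FDR in the window was 0.0275. The peaks of Hoxc5, Hoxc13 and Hoxd1 were also absent from the stricter list.

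The 23 genes without a promoter peak were Hoxa2 and Hoxa11 in Hoxa, Hoxb1, Hoxb2, Hoxb3, Hoxb6, Hoxb7, Hoxb8 and Hoxb13 in Hoxb, Hoxc4, Hoxc6, Hoxc8, Hoxc9, Hoxc11 and Hoxc12 in Hoxc, and every Hoxd gene other than Hoxd1. The authors' false discovery rate (FDR) file, which lists positions with an FDR of at most 0.05, was read at the same promoters. Of all 38 Hox genes, 3, 16 and 6 had a listed position in the window, beside 3, 15 and 6 with a peak. Of all protein-coding genes 55.2%, 68.5% and 57.4% had one. The FDR and peak lists thus nearly coincide, and genes chosen for lacking a peak were bound to have few listed positions. Of the 23 windows, 0, 1 and 0 held a listed position in replicates 1, 2 and 3. The exception was Hoxa11, a limb and reproductive tract gene, where 1.80% of the window was listed in replicate 2, at an FDR as small as 1.51e-15. For these 23 genes the nearest listed position lay at a median of 21841, 7581 and 10651 bp from the TSS in replicates 1, 2 and 3. In Hoxd, the TSS of Hoxd13 was 47545, 12292 and 47493 bp from it.

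Hox promoters were more often rich in CpG sites than those of all genes. CpG-rich promoters, defined here by at least 55% G and C and an observed to expected CpG ratio of at least 0.6, were found at 16 of the 38 Hox genes, or 42.1%, against 17.1% of all protein-coding genes. This was not particular to the Hox genes. Homeobox genes outside the clusters had 50 of 91, or 54.9%, and the related Cdx and ParaHox genes 3 of 6. Of those 16, 3, 8 and 4 were open in replicates 1, 2 and 3, against 84.8%, 96.8% and 82.8% of all 3735 genes with such promoters. By number of libraries, 3 of the 16 were open in all 3, 1 in 2, 4 in 1 and 8 in none, against 80.2%, 7.1%, 9.72% and 3.03% of those 3735 genes. Hoxd stood out within the family. It had 6 CpG-rich promoters of 9, the most of any cluster, and the fewest peaks.

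**Figure D2:**
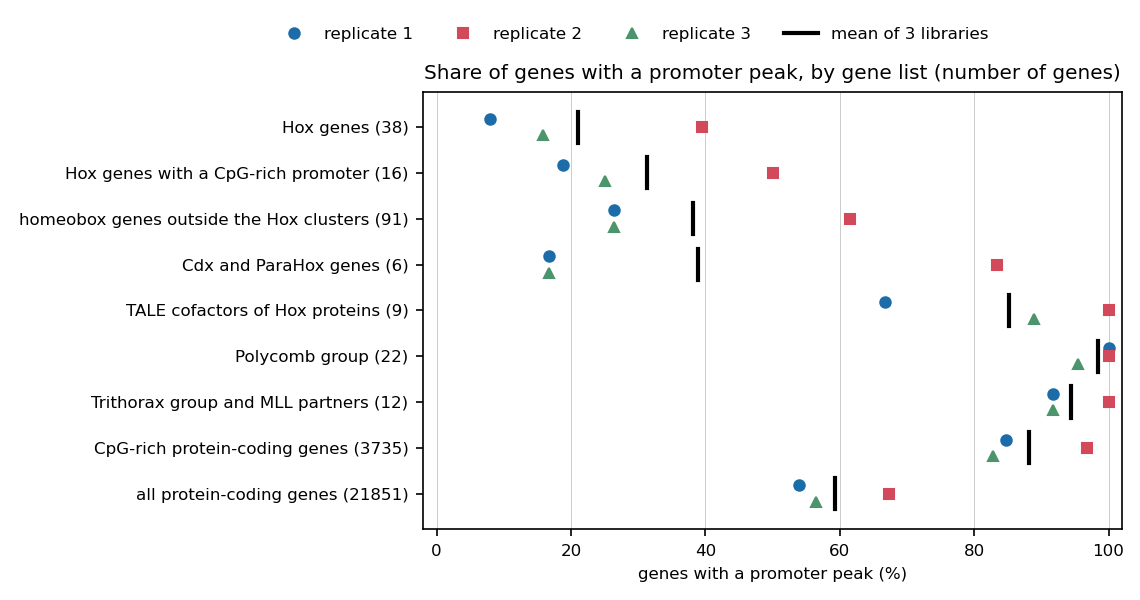
Share of genes with a promoter peak (x axis, %) in replicates 1, 2 and 3 for Hox genes, related lists, CpG-rich promoters and all protein-coding genes (number of genes in brackets), with the mean of the 3 libraries as a black line. The Hox points lie at 7.89%, 39.5% and 15.8%, left of all protein-coding genes in each library, and the Polycomb points at 95.5% and above.

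Homeobox genes that lie elsewhere in the genome had shares between those of the Hox genes and of all genes in each library. Promoter peaks were found at 24, 56 and 24 of 91 such genes, with 18 open in all 3 libraries and 33, or 36.3%, in none. The highest were Pitx3, at percentiles 69.8, 68.2 and 71.9, and Six5, at 74.9, 66.1 and 67.6. The Cdx and ParaHox genes, relatives of the Hox genes that include the Cdx activators of the clusters, had a peak in 1, 5 and 1 of 6 cases. Gsx1 was open in all 3 libraries, at signals of 0.885, 0.840 and 0.381, while Cdx1, Cdx2 and Cdx4 were open in replicate 2 alone. Among these lists only the order of shares was compared, and no test was run.

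Genes of the Polycomb and Trithorax groups had a promoter peak in nearly every case, and other partners of the Hox proteins less uniformly. Of 9 genes for TALE proteins, the homeodomain cofactors that bind DNA with Hox proteins, 6, 9 and 8 had a promoter peak, or 66.7%, 100% and 88.9%, against 54%, 67.3% and 56.4% of all protein-coding genes. Pknox1 had the highest lowest percentile of that list, at 99.0, 98.9 and 98.9, followed by Pbx3 at 92.6, 94.7 and 86.0. Meis1, a partner of Hoxa9 in blood progenitors, had signals of 1.14, 2.10 and 1.73, and was open in all 3 libraries where Hoxa9 was open in 1. The 22 Polycomb genes, which encode the silencing complexes, had a promoter peak in 22, 22 and 21 cases. Jarid2 and Suz12, parts of the complex that methylates histone H3, led that list, Jarid2 at percentiles 91.6, 96.2 and 96.8 and Suz12 at 88.6, 89.7 and 88.4. Bmi1 was the single Polycomb gene without a peak in a library, replicate 3. The 12 Trithorax and MLL genes had 11, 12 and 11, with Dot1l, a histone methyltransferase, at 98.7, 93.4 and 92.2 and Kdm6a, a demethylase that removes the Polycomb mark, at 91.9, 92.5 and 98.7. Kdm6b, its relative, had a peak in replicate 2 alone. Retinoic acid receptors and enzymes, which act upstream of anterior Hox genes, had 6, 9 and 7 of 9, which in replicate 1 is also near the share of all genes. Rxrb led them at percentiles 98.9, 96.1 and 93.1, followed by Rara at 65.0, 62.8 and 64.1.

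Within the clusters, open DNA was found at a few places shared by the libraries and at many places in replicate 2. A cluster was taken as the span of its members with 10000 bp added at each end, 564988 bp in all. It held 12, 77 and 21 peaks in replicates 1, 2 and 3, or 2.12, 13.6 and 3.72 per 100 kb, against 1.26, 4.49 and 2.23 in the genome. Hoxa had the most of any cluster in each library, with 7, 57 and 10 peaks, while Hoxb had 3, 10 and 7, Hoxc 1, 7 and 3, and Hoxd 1, 3 and 1. Without Hoxa, the other clusters had 2.69 ± 1.69 peaks per 100 kb (SD, n = 3), close to the 2.66 ± 1.65 of the genome. In windows of the size of each cluster tiled over the genome, Hoxa held more peaks than 94.9%, 99.5% and 92.3% of windows, and Hoxd more than 55.3%, 54.3% and 46.0%. In replicates 1 and 3 Hoxd held 1 peak, so it exceeded only the windows without any. The windows were not matched for gene content. Bases under a peak made up 0.718%, 13.4% and 1.45% of Hoxa and 0.154%, 0.482% and 0.188% of Hoxd. Footprints numbered 9.16 ± 1.38 per kb of peak in the clusters and 10.7 ± 1.15 in the genome (SD, n = 3), a difference near the spread between libraries.

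The DNA on either side of the clusters ranged from sparse to dense in peaks. In the 500000 bp on each side, the 4 clusters together had 2.6, 7.58 and 4.1 peaks per 100 kb in replicates 1, 2 and 3. The flank of Hoxa at lower coordinates reached signals of 6.57, 23.6 and 16.8, at the promoter of Skap2, an adaptor protein of blood cells. These are the same values as that gene's promoter signals, at percentiles 95.6, 97.4 and 95.6. On the other side, the nearest 200000 bp held 0, 5 and 0 peaks, with signals of at most 0.472, and the promoter of Hibadh, farther out, had 5.20, 28.8 and 15.4. The nearest 200000 bp of Hoxb at higher coordinates likewise held signals of at most 0.677. Of 14 genes listed as flanking the clusters, 9, 10 and 10 had a promoter peak, or 64.3%, 71.4% and 71.4%, near the 54%, 67.3% and 56.4% of all protein-coding genes. Atf2, which is on that list but lies outside the 500000 bp flank of Hoxd, was at percentiles 95.3, 96.1 and 97.5. Evx1 and Evx2, homeobox genes next to Hoxa and Hoxd, had none in any library, nor had Skap1 and Smug1. The 500000 bp flanks of Hoxd had 0.667 ± 0.306 peaks per 100 kb at lower and 2.13 ± 0.902 at higher coordinates, and those of Hoxa 1.73 ± 0.902 and 1.87 ± 1.22 (SD, n = 3). The flank of Hoxb at lower coordinates had 10.7 ± 6.00 and that of Hoxc at higher coordinates 10.4 ± 6.39.

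**Figure D3:**
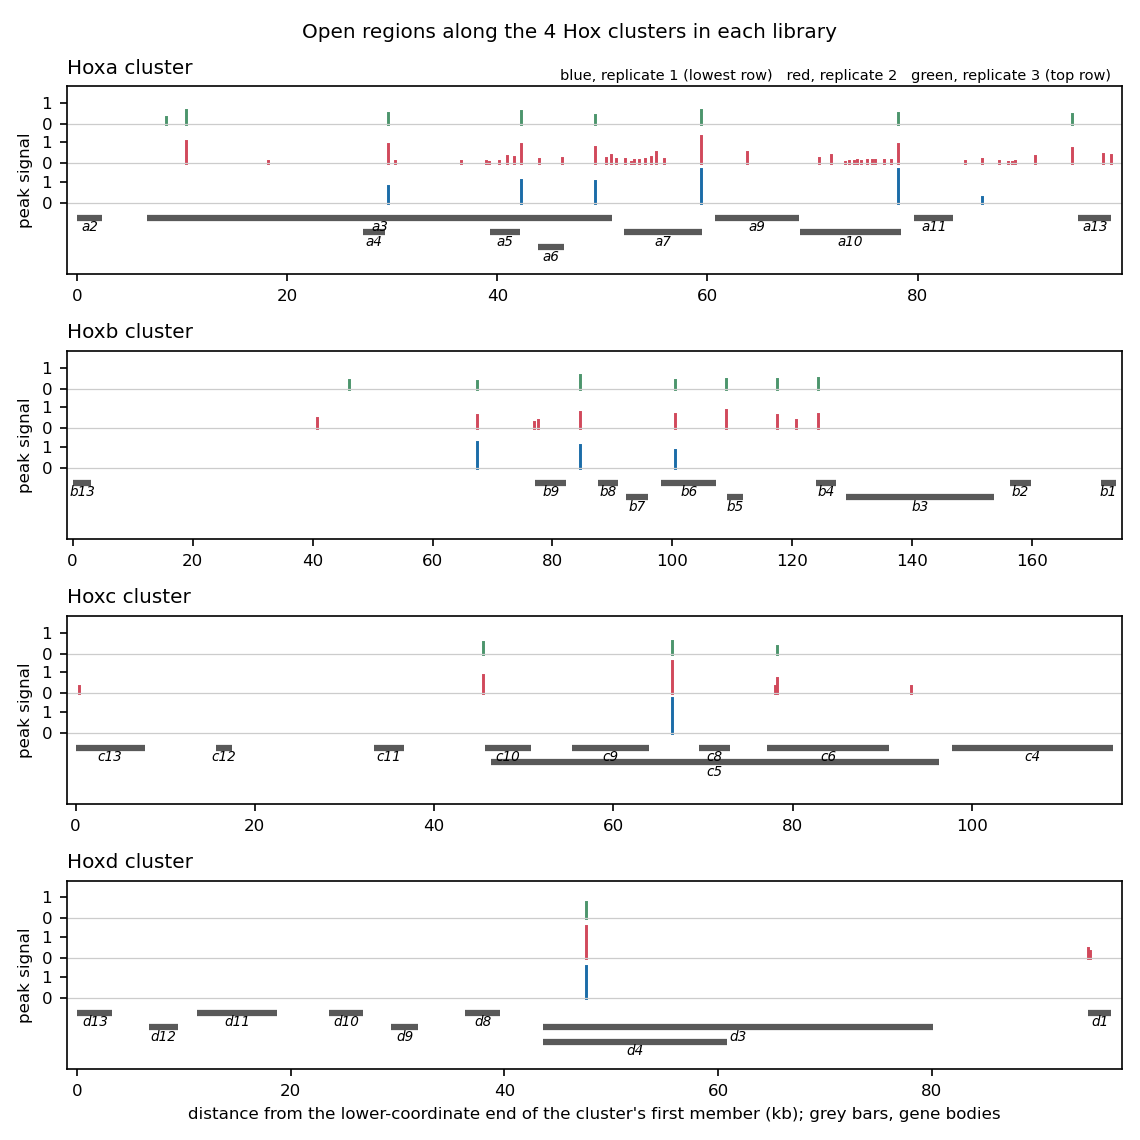
Signal of open regions (y axis, 1 row per library, replicate 1 lowest) along each Hox cluster (x axis, kb from the end of the first member), with gene bodies in grey. Hoxd has 1 region in all 3 libraries, and the replicate 2 row of Hoxa is filled with low signals.

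Merged over the libraries, the clusters held 74 open regions. Of these, 11 were in all 3 libraries (6 in Hoxa, 3 in Hoxb, 1 in Hoxc and 1 in Hoxd), 9 in 2 and 54 in 1. That is 1.95 shared regions per 100 kb, against 0.953 in the genome. By cluster it was 5.06 in Hoxa and 1.55 in Hoxb, but 0.737 in Hoxc and 0.856 in Hoxd, below the genome. Of the 54, 52 were in replicate 2 alone, 42 of them in Hoxa. All 12 peaks of replicate 1 met a peak of replicate 2, and 11 met one of replicate 3. Replicate 2 had 77 peaks, of which 12 met replicate 1 and 19 met replicate 3. Replicate 1, with the fewest peaks, held 0 regions of its own in the clusters.

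The 11 shared regions were 6 at promoters of any gene type, 4 in introns and 1 between genes. In Hoxd, chr2:74715861-74716080 had signals of 1.53, 1.54 and 0.796, higher than 61.7%, 83.5% and 54.9% of the peaks of replicates 1, 2 and 3. It lies at the start of the antisense transcript Hoxd3os1, 3934 bp downstream of the nearest Hoxd3 TSS, and no promoter of a Hoxd coding gene touched it. Hoxd, without a coding promoter open in more than 1 library, thus held the best-ranked shared region of the 4 clusters. In Hoxc, the sole shared region was chr15:102987501-102987720, with signals of 1.67, 1.53 and 0.588. It lies 2887 bp upstream of Hoxc8, within an intron of the long gene record of Hoxc5. In Hoxb, chr11:96278881-96279060 had 1.09, 0.781 and 0.637. It lies between genes, 2845 bp upstream of Hoxb8. A further region, chr11:96294641-96294780, in an intron of Hoxb6, had 0.862, 0.691 and 0.395. The third, chr11:96261641-96261837, had 1.23, 0.625 and 0.339 at the promoter of Gm53, 9620 bp upstream of Hoxb9.

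In Hoxa, the shared regions at coding promoters were those of Hoxa4, Hoxa5 and Hoxa10. The Hoxa10 region, chr6:52240441-52240660, lies 194 bp downstream of a TSS. The strongest in that cluster was chr6:52221681-52221960, with signals of 1.63, 1.30 and 0.665. It lies 2970 bp upstream of the nearest Hoxa7 TSS of the transcript set used, and the 5′ end of the Hoxa7 gene record lies inside it. A further one, chr6:52211621-52211880, with 1.04, 0.785 and 0.422, lies in an intron of the long gene record of Hoxa3. It is 1235 bp downstream of the Hoxa3 TSS used, between Hoxa6 and Hoxa7. The remaining shared region lay beyond Hoxa2, in the added flank. The region chr6:52172621-52172880 lies 7790 bp upstream of Hoxa2, inside the Hoxa3 gene record and 1 bp from an annotated start site. It was absent from replicate 1 and had 1.06 and 0.671 in the others.

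In these 11 regions, replicate 1 had a higher signal than replicate 3 in 11 cases, against 47.1% of the 25972 shared regions of the genome. Among the 7037 genomic regions whose replicate 2 signal lay in the range of the Hox regions, 0.625 to 1.54, the share was 80.9%. Signals are scaled per library, so this order holds for the deposited values alone. By percentile among each library's peaks, replicate 3 was above replicate 1 at Hoxa4, 35.8 against 31.3. It was also above in the region beyond Hoxa2, 45.9 against 40.1, and below at the other shared regions. The cause of the order was not tested. The median signals of the Hox regions were 1.09, 0.945 and 0.588 in replicates 1, 2 and 3, below the 1.48, 2.61 and 1.64 of all shared regions.

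**Figure D4:**
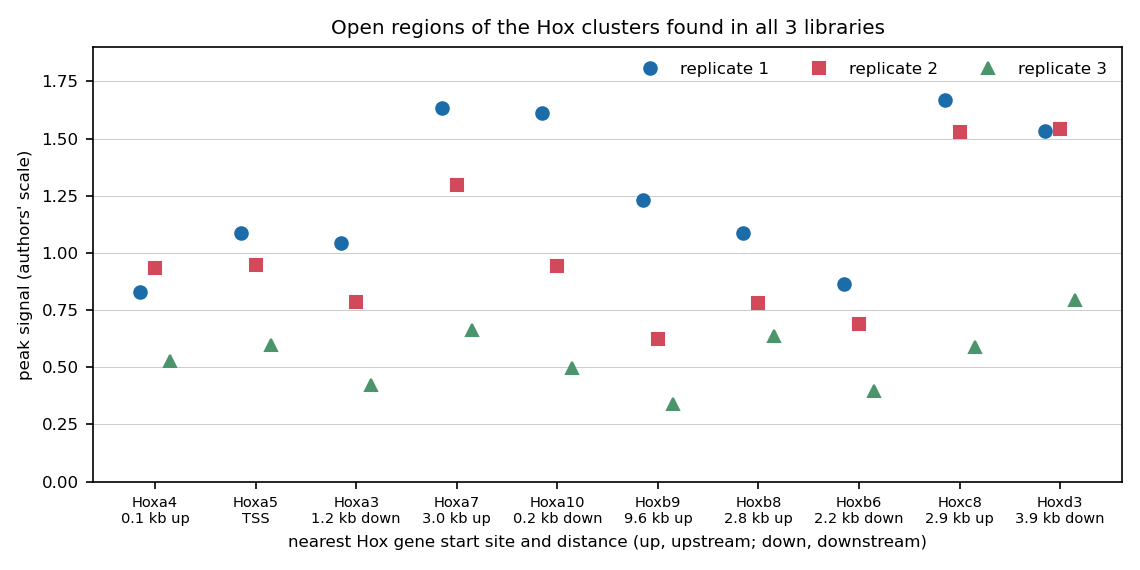
Peak signal (y axis, authors' scale) in replicates 1, 2 and 3 of 10 of the 11 open regions of the Hox clusters found in all 3 libraries (x axis, nearest Hox start site and distance); the region in the added flank is left out. Replicate 3 is the lowest at each region, and the Hoxc8 and Hoxd3 regions are among the highest in replicates 1 and 2.

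Most of a chosen list of 15 non-coding genes of the clusters had no promoter peak, as in the genome. The list leaves out other transcripts, such as Gm53, whose promoter held a region found in all 3 libraries. Of 15 examined, 1, 2 and 1 had one in replicates 1, 2 and 3 and 13 had none in any, against 17.3%, 29.5% and 21.3%, and 69.3% with none, of 11995 non-coding genes of the same types. Among the 15, which include Hotair, Hottip, Haglr, the Mir10 and Mir196 genes and antisense transcripts, Hoxd3os1 alone had a promoter peak in all 3 libraries. The promoter window of Mir615 held the same replicate 2 peak as Hoxc5, at 0.358, and the other 13 had none. The known regulatory RNA Hottip, at the posterior end of Hoxa, and Hotair, in Hoxc, were thus without a peak in each library.

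The Hoxa cluster of replicate 2 differed from every other cluster and library. Of its 57 peaks, 45 had a signal under 0.4, and 29 of these overlapped positions with an FDR under 1e-10. Low signal and low FDR seldom went together elsewhere: in the genome, 8365 of 62933 such weak peaks of replicate 2 did so, or 13.3%, and 35 and 21 peaks in replicates 1 and 3. In 1-kb bins across Hoxa, 20 of 119 bins were listed over at least 50% of their positions in replicate 2 and 0 in replicates 1 and 3. In replicate 2, 85.6% of the Hoxa10 windows and 78.6% of the Hoxa5 window were listed, against 4.15% and 2.50% in replicate 1 and 3.75% and 10.8% in replicate 3. The smallest FDR of both is listed as 0 in replicate 2. At Hoxa3, whose window lies between Hoxa6 and Hoxa7, 88.3% of the window was listed in replicate 2 and none in the others. The longest listed stretches lay between Hoxa5 and Hoxa7, with gaps, and over the body of Hoxa10. Shorter ones lay upstream of Hoxa11, where 1 bin was listed over 55.5%, and at Hoxa13, where 31.0% of the window was listed. The windows of Hoxa2, Hoxa9 and Hoxa11 had 0%, 1.57% and 1.80%.

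**Figure D5:**
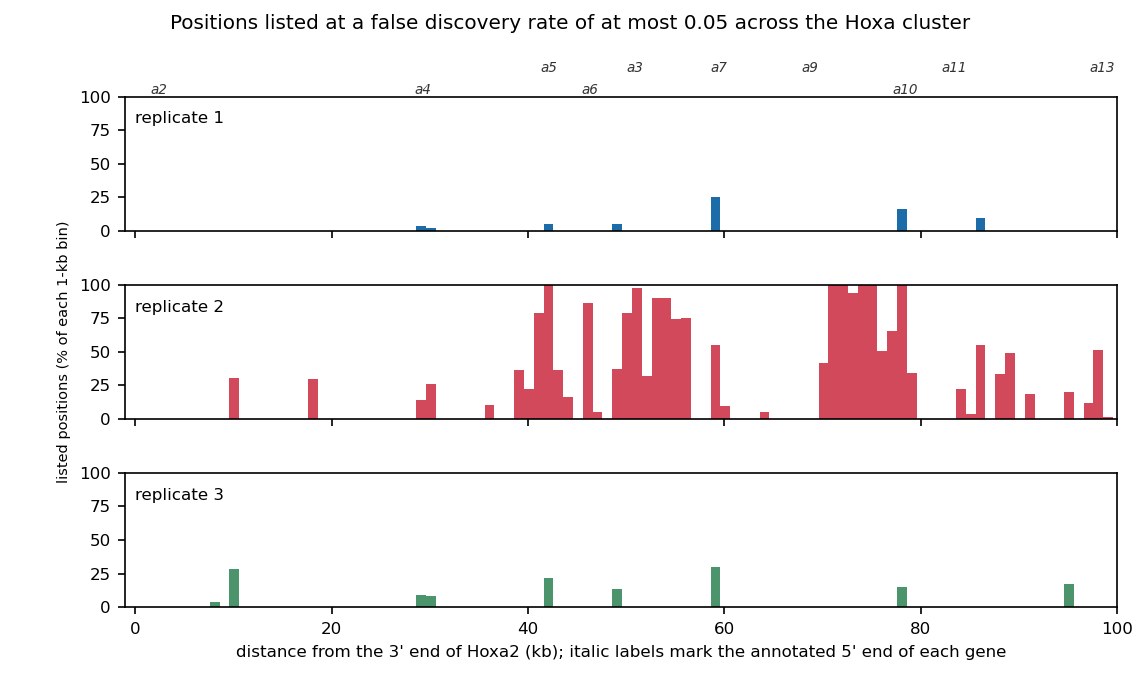
Share of positions listed at an FDR of at most 0.05 (y axis, % of each 1-kb bin) across the Hoxa cluster (x axis, kb from the 3′ end of Hoxa2) in replicates 1, 2 and 3. In replicate 2, 20 of 119 bins of the cluster are listed over at least 50%, most of them around Hoxa5 to Hoxa7 and over Hoxa10, and in replicates 1 and 3 the bins stay under that share.

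The signal cut of 0.4 was chosen after the data had been seen, and counts of weak peaks of low FDR were not planned. They describe the Hoxa pattern and do not test it. Of 27268 bins of 100 kb in the genome, 1674 held any such peak in replicate 2. The Hoxa bin held 29, and 16 bins held at least as many, the Hoxa bin included. The strongest peak of the Hoxa bin had a signal of 1.30, and those of the other 15 bins ranged from 0.517 to 23.5 with a median of 7.95. The Hoxb, Hoxc and Hoxd clusters held 0 such peaks in replicate 2. In replicate 1, a weak peak near Hoxa11, within chr6:52248321-52248722, had a signal of 0.280 and an FDR of 3.10e-14, and in replicate 2 the same region had 0.215 and 1.10e-18.

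The sequences of the shared regions were searched for motifs in their middle 200 bp, on both strands. A match is a description and not a binding site. The long CTCF core pattern, searched by name, was found in 0 of the 11 regions and in 9.48% of all shared regions. A 7-base part of it, in the form AGATGGC or the near form AGGTGGC, or as AGAGGGC or as the form AGGGGGC, was chosen after the sequences had been seen. It was found in 5 of 11, against 39.7% of all shared regions, and in 4 of the 5 away from promoters, against 51.8%. Neither share was tested, and both rest on few regions. The match is shown for 3 regions, as 61 bases with the 7 in capitals, as it occurred at these places: upstream of Hoxb8, in Hoxb6 and upstream of Hoxc8. They are chr11:96278926-96278986 on the plus strand, chr11:96294671-96294731 on the minus strand and chr15:102987571-102987631 on the plus strand.
Hoxb8: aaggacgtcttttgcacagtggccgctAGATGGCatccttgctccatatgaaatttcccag
Hoxb6: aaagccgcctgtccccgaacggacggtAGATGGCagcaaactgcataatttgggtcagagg
Hoxc8: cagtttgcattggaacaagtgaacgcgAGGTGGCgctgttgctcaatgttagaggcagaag
The matches near Hoxb8 and Hoxc8 lay under a footprint in 3 of 3 libraries, and that of Hoxb6 in 1. The Hoxb8 and Hoxb6 matches have the form AGATGGC and the Hoxc8 match the form AGGTGGC. Matches were also found in the Hoxa regions upstream of Hoxa7 and at Hoxa10, where a footprint lay over a match in 3 and 2 libraries.

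Over all peaks of the clusters, 4 of 12 motifs had a mean share above that of all peaks of the same libraries. The CCAAT box of NFY was found in 30.6% ± 6.77 of cluster peaks against 23.0% ± 0.823 of all peaks (SD, n = 3), and was higher in 3 of 3 libraries. Of cluster peaks, 7 of 12, 42 of 77 and 12 of 21 lay at promoters in replicates 1, 2 and 3. Of all peaks it was 19352 of 34369, 33159 of 122281 and 23531 of 60862. At promoters the NFY shares were 28.57%, 35.71% and 50% of cluster peaks, against 24.72%, 23.48% and 26.96% of all promoter peaks. Away from promoters the NFY shares were 20%, 20% and 22.2%, against 20.8%, 21.7% and 21.9% of all such peaks. The part of promoter content in the NFY difference was not tested. The AP-1 site TGANTCA had 8.12% ± 1.53 against 5.48% ± 1.61, and the posterior HOX pattern TTTATNG had 6.53% ± 1.79 against 4.24% ± 0.715, each higher in 3 of 3 but on few peaks. In replicate 3 the posterior HOX match was in 1 of 21 peaks, 4.76% against 4.68%, and it was in 0 of 7, 0 of 42 and 0 of 12 cluster peaks at promoters. The AP-1 match was in no cluster peak away from promoters in replicates 1 and 3. The homeodomain site TAATTA had 4.08% ± 4.17 against 1.61% ± 0.361, a difference within the spread between libraries. The E-box CAGNTG, read by TAL1 and its partners in red cells, was at 18.7% ± 10.1 against 44.6% ± 3.83, and lower in 3 of 3 libraries, at promoters and away from them. The GATA site AGATAA had 7.68% ± 2.24 against 11.1% ± 5.72, again within the spread. RUNX sites (TGTGGT) were at 8.55% ± 0.886 against 13.9% ± 2.41, MEIS sites (TGACAG) at 7.36% ± 7.15 against 14.0% ± 1.50, and KLF or SP boxes (CCNCNCCC) at 29.5% ± 5.10 against 39.4% ± 5.74. The long CTCF core and the ETS site CCGGAAGT were found in no cluster peak, against 6.01% ± 2.27 and 2.05% ± 0.909 of all peaks. The PBX-HOX composite TGATTNAT was at 0.433% ± 0.750 against 1.16% ± 0.327. Replicate 1 had only 12 cluster peaks, so 1 peak is a large share there.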

How the data were processed

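Peaks, FDR values and footprints were deposited by the authors as separate files for each library, in mm10 per the labels; the peak caller is not given in the sources used here. Peak signal is the deposited signal column, scaled per library by the authors. The deposited FDR files give a q-value (p-value adjusted by the authors), all at most 0.05. The deposited footprints carry the constant score 0.01, used for positions only. Of the 2 deposited peak lists per library, the list with more rows was used and the other (22312, 75622 and 40814 peaks) was an alternative. Read depth is not known from these files.

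Genes came from GENCODE M21 basic and sequences from the GRCm38 genome, whose chromosomes contain every peak. Overlapping peaks (at least 1 bp) of different libraries were joined into regions. Analyses used Python 3.11.15, NumPy 2.4.6 and pandas 2.3.3, and the scripts passed 9 of 9 checks on simulated peaks. The members were taken by symbol, but they and the lists were proposed and chosen with earlier results of these data known. All members were placed. Values were given for the 3 highest and lowest of each cluster and for members that differed between libraries. They were also given for up to 2 leaders of some lists and for the best-ranked regions. Most cell type marker lists were given as counts. Of the flanking genes, 2 were not found in the annotation, and 1 gene that lies elsewhere was removed from that list. Alternatives covered the peak list, the promoter and cluster definitions, and each library left out.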

Additional observations from a re-analysis of the deposited data

How the results depend on the processing

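The mean share of Hox genes with a promoter peak ranged from 7.02% with equal numbers (34369) of the strongest peaks to 27.6%. Without each library in turn it ranged from 11.8% to 27.6%. Every alternative tried lay within 1 SD of 21.1%, but that SD, 16.4, is the wide spread between libraries, so this is a weak criterion. With equal numbers, replicates 1, 2 and 3 gave 7.9%, 13.2% and 0%, against a mean of 51.9% of all protein-coding genes. The count open in every library was 0 with the stricter lists, 0 with equal numbers of peaks, 5 with promoters of 2500 bp either side, and 3 to 6 without 1 library, 6 being without replicate 1. The median Hox percentile was 0 throughout. Shared regions numbered 3 with the stricter lists, 4 with equal numbers, and 11 to 19 without 1 library, 19 being without replicate 1. Footprints per kb of peak were 11.8 with the stricter lists, 11.6 with equal numbers, 11.3 for peaks with a signal of at least 0.4 and 10.8 without the Hoxa cluster, the last 2 chosen after seeing the data, and 8.37 to 9.58 without 1 library. Without replicate 2 the clusters held 2.92 peaks per 100 kb and 0.434% of their bases under a peak, against 6.49 and 1.43% with all libraries; without replicate 1 they held 8.67 and 2.01%. Flank density ranged from 3.35 to 5.84 per 100 kb and the motif count was 4 without each library. The cause of these changes was not tested. No paired analysis was possible because there is a single group. Peak number differs between libraries, and a missing peak in replicate 1 does not show that a Hox promoter was closed.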
